A study of Macaca mulatta with 4 samples.

Results

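Kinesin and dynein motor genes were followed in RNA sequencing of the amygdala of infant rhesus macaques (Macaca mulatta). They were taken by symbol, as KIF or KLC with a number or as DYNC1, DYNC2, DYNLL, DYNLRB or DYNLT. Of 35395 gene IDs in the count table, 61 carried such a symbol, and 54 of them had at least 10 reads in at least 2 of the 4 libraries. These 54 split into 35 heavy chains, a class that in general binds microtubules and hydrolyses ATP, and 19 other subunits. The other subunits are kinesin light chains and dynein intermediate, light intermediate and light chains. All animals were wild type. The sevoflurane group, 1 female and 1 male, inhaled sevoflurane, a halogenated ether anaesthetic, at about 2.5 to 3% for 4 hours on about postnatal days 7, 21 and 35, and the amygdala was taken right after the third exposure. The control group also held 1 female and 1 male, and the sources used here do not give the gas it breathed. Each library is the lone one of its sex and group, and the labels say nothing on pooling or shared handling. Apart from fits with sex as a second term, the p-values of single genes below rest on the spread between libraries of a group. That spread takes in any difference between the sexes and may be technical. Handling that went with the group cannot be told apart from the exposure.

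Of the 7 members not kept, KIF2B had 0 reads in all libraries, and KIF4B, KIF12, KIF18B, KIF24, DYNLT2B and DYNLT4 reached 10 reads in at most 1 library. Just inside the minimum were KIF20A, with 14 and 11 reads in the sevoflurane female and male libraries and 6 and 2 in the control female and male libraries, and KLC3, with 5 and 7 reads in the sevoflurane female and male libraries and 14 and 13 in the control female and male libraries. Just outside were KIF24, with 3 and 18 reads in the sevoflurane female and male libraries and 2 and 5 in the control female and male libraries, and DYNLT2B, with 9 and 3 reads in the sevoflurane female and male libraries and 5 and 17 in the control female and male libraries. All 54 kept members were tested.

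Microtubule motors carry cargo along the long processes of neurons. Most kinesins walk toward the plus ends of microtubules, which in axons point to the synapse, and cytoplasmic dynein walks toward the minus ends. Conventional kinesin is built from KIF5 heavy chains and KLC light chains that help bind cargo, and cytoplasmic dynein from the DYNC1H1 heavy chain and smaller chains that bind adaptors and the dynactin complex. Another dynein, with the DYNC2H1 heavy chain, works inside cilia, and a further set of kinesins serves the mitotic spindle.

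Reads on genes ranged from 12477047 to 16293371 per library. The motor genes took 1.0% and 0.955% of them in the sevoflurane female and male libraries, against 0.684% and 0.633% in the control female and male libraries. Neuronal, oligodendrocyte, astrocyte and microglial markers were present in all libraries, and none of these markers was at 0; markers of the amygdala itself were not examined. The control male library stood apart in choroid plexus genes, whose 7 listed members summed to 17997 CPM there, against 34.3 and 9.27 CPM in the sevoflurane female and male libraries and 13.8 CPM in the control female library. CPM here are read counts put on a common scale by library size and TMM factors. Across the transcriptome, 40.7% of 15417 tested genes passed edgeR's quasi-likelihood test at 0.05 after Benjamini-Hochberg adjustment and are termed called, 21.3% higher in sevoflurane and 19.4% lower. In whole tissue, fewer cells of a type and less RNA per cell cannot be told apart.

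Heavy chains and the other subunits differed in the direction in which they were called. Only 2 of the heavy chains belong to dynein, and only 4 of the other subunits are kinesin light chains. The comparison of the classes is thus in large part one of kinesin with dynein. Of the 2 dynein heavy chains, DYNC2H1 rose and DYNC1H1 was not called. Of 35 heavy chains, 14 rose in the sevoflurane libraries, 2 fell and 19 were not called, and their median log2 fold change was 1.0. Of 19 other subunits, 2 rose, 6 fell and 11 were not called, with a median of −0.73. Over all tested genes the median was 0.0040. With the dynein intermediate and light intermediate chains left out, 12 light chains remained, of which 1 rose and 5 fell, with a median of −1.25. Thus 14 of 35 heavy chains rose where 21.3% of all tested genes did, and 31.6% of other subunits fell where 19.4% did. Both sevoflurane libraries lay above both controls for 22 heavy chains and 4 other subunits (37.7% of all tested genes) and below both for 6 heavy chains and 10 other subunits (37.3%). The difference had the same sign in females and males for 31 of the heavy chains and 16 of the other subunits.

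These counts rest in part on the read minimum and on single libraries. KIF11, KIF14, KIF18A and KIF20A reached 10 reads only in sevoflurane libraries and KLC3 only in control libraries, so these 5 had to differ between the groups. Without them 11 of 31 heavy chains rose and 2 fell, with a median of 0.65, and 2 of 18 other subunits rose and 6 fell, with a median of −0.59. Without the sevoflurane male library 8 heavy chains rose and 0 fell, and 0 other subunits rose and 3 fell. Without the control male library 0 heavy chains fell, and 1 other subunit rose and 4 fell, among them 3 light chains. Without the control female library 0 other subunits rose, and without the sevoflurane female library 1 heavy chain fell. Of the 24 calls, 11 held without each library in turn, namely those of KIF5A, KIF5C, KIF3A, KIF3B, KIF1B, KIF13B, KIF21A and DYNC2H1, which rose, and of DYNLL1, DYNLRB1 and DYNC2I2, which fell.

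**Figure D1:**
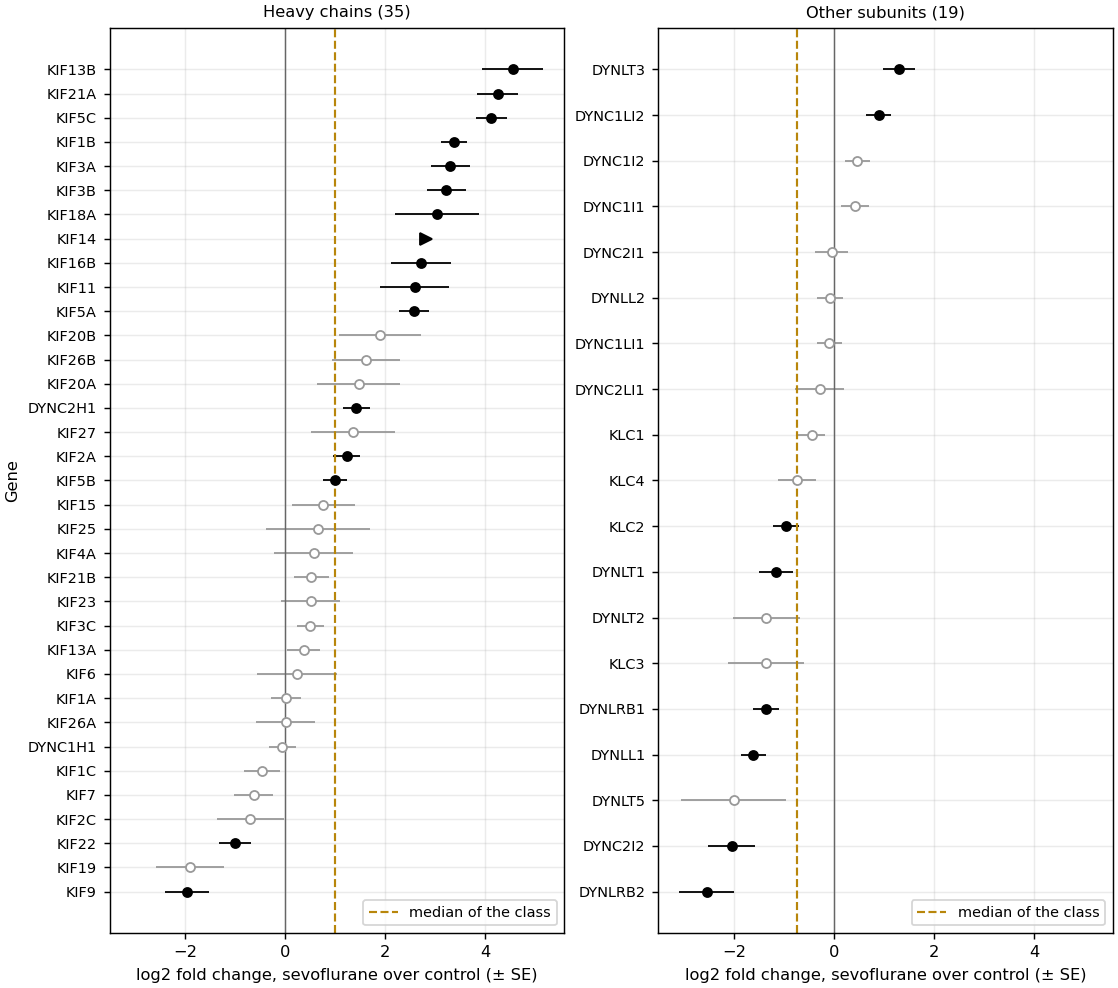
Log2 fold change of sevoflurane over control (x axis, ± SE) for each tested heavy chain (left) and other subunit (right). Filled points are called at an adjusted p under 0.05 and open points are not. The triangle marks KIF14, which had 0 reads in controls, against a floor of 3 reads per library. The dashed line is the class median (1.0 for heavy chains, −0.73 for other subunits).

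The ratio of heavy chains to other subunits was compared within each library, where scaling cancels. Reads summed over the 35 heavy chains were 1.98 and 1.65 times those over the 19 other subunits in the sevoflurane female and male libraries, against 0.672 and 0.671 times in the control female and male libraries. The groups did not overlap, and the mean difference was 1.43 on the log2 scale, in sevoflurane over control. Averaging log2 CPM over members in place of summing gave a difference of 1.90. A two-sided exact permutation test of 2 against 2 libraries cannot go below p = 0.33, and gave p = 0.33 on both scales. Transcript lengths were not used here, so the ratios compare libraries and not the abundance of the chains.

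Conventional kinesin, the main motor of fast axonal transport toward the synapse, rose in all 3 heavy chains, where 21.3% of all tested genes rose. KIF5C (ENSMMUG00000009268), a heavy chain of neurons, stood at 755 and 691 CPM in the sevoflurane female and male libraries, against 48.6 and 34.6 CPM in the control female and male libraries. The groups lay far apart, with a log2 fold change of 4.12 ± 0.31 (SE, adjusted p = 0.00141). KIF5A (ENSMMUG00000011297), also neuronal, stood at 659.9 and 771 CPM in the sevoflurane female and male libraries, against 142 and 98.1 CPM in the control female and male libraries. Its log2 fold change was 2.57 ± 0.31 (adjusted p = 0.00262). KIF5B, the heavy chain found in most cell types, was 226 and 246 CPM in the sevoflurane female and male libraries and 115 and 120.3 CPM in the control female and male libraries. Its change was the smallest of the 3, at 1.0 ± 0.24 (adjusted p = 0.0190), and it was no longer called without the control female (adjusted p = 0.0957), the control male (0.0971) or the sevoflurane male library (0.0586). Summed over the 3 genes, KIF5 reached 1641 and 1707 CPM in the sevoflurane female and male libraries, against 306 and 253 CPM in the control female and male libraries.

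The kinesin light chains, which link these heavy chains to cargo, did not follow them. KLC1 stood at 872 and 936 CPM in the sevoflurane female and male libraries, against 1341 and 1122 CPM in the control female and male libraries. The groups did not overlap, but the log2 fold change of −0.45 ± 0.27 was not called (adjusted p = 0.218). KLC2 fell to 117 and 95.9 CPM in the sevoflurane female and male libraries, against 226 and 186 CPM in the control female and male libraries. Its log2 fold change was −0.95 ± 0.26 (adjusted p = 0.0294), and the call was gone with library totals in place of TMM (0.0761) and without the control female (0.150), the control male (0.0556) or the sevoflurane male library (0.106). KLC3 (−1.36) and KLC4 (−0.73) were not called, though KLC4 was called without the sevoflurane female library (−1.30, adjusted p = 0.0395). Reads on the 3 KIF5 genes were 1.59 and 1.62 times those on the 4 KLC genes in the sevoflurane female and male libraries, against 0.189 and 0.185 times in the control female and male libraries. That is a difference of 3.10 on the log2 scale, with the smallest p that 2 against 2 libraries allow (exact permutation test, p = 0.33).

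**Figure D2:**
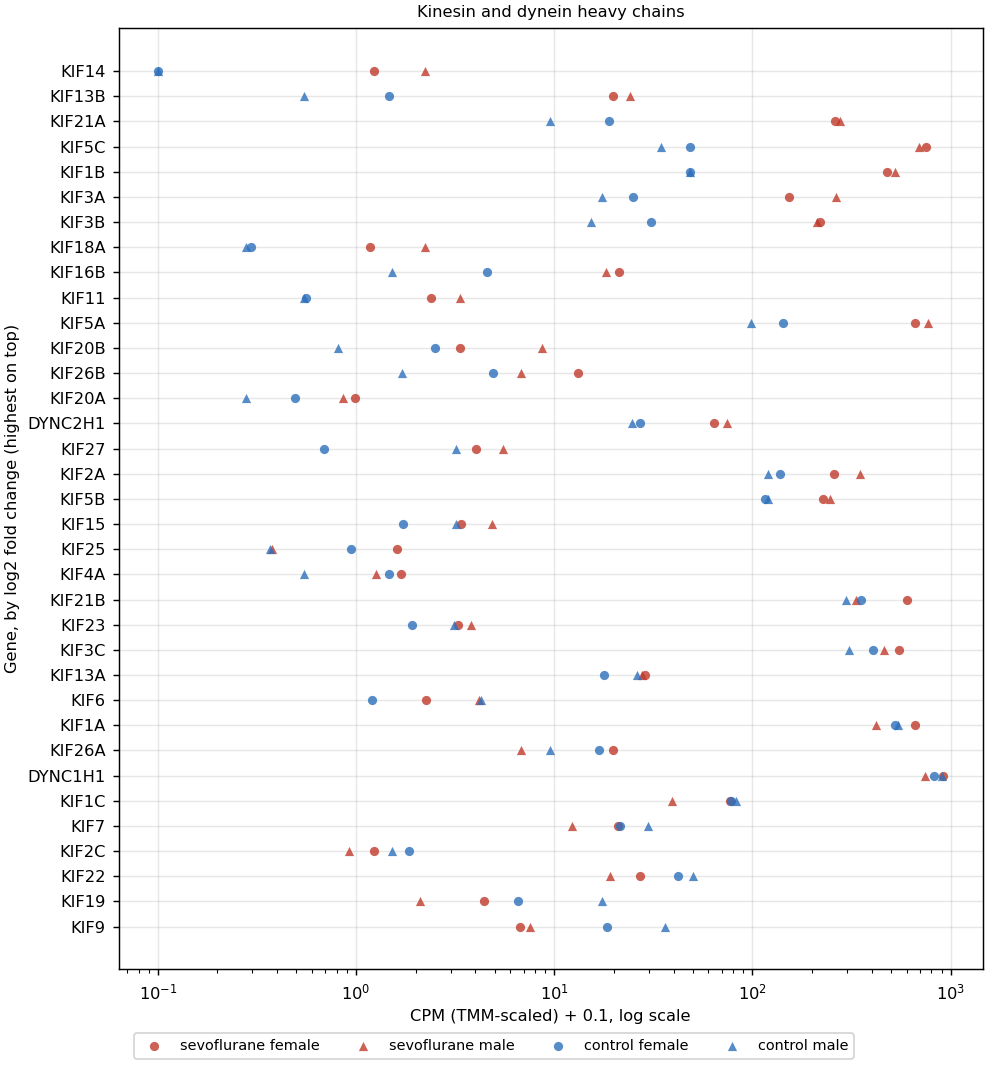
CPM plus 0.1 (x axis, log scale) of the 35 tested heavy chains in each library, ordered by fitted log2 fold change; red marks sevoflurane, blue control, circles females and triangles males. KIF5C, KIF5A, KIF1B, KIF21A, KIF3A and KIF3B lie far to the right in both sevoflurane libraries, while DYNC1H1 and KIF1A overlap between groups.

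Kinesin-2 motors work in cilia and in axons. KIF3A and KIF3B form a heterotrimer with the adaptor KIFAP3, and KIF3C pairs with KIF3A in place of KIF3B in neurons. KIF3A stood at 153 and 264 CPM in the sevoflurane female and male libraries, against 24.9 and 17.4 CPM in the control female and male libraries (log2 fold change 3.30 ± 0.38, adjusted p = 0.00252). KIF3B stood at 219.6 and 211 CPM in the sevoflurane female and male libraries, against 30.8 and 15.3 CPM in the control female and male libraries (3.22 ± 0.39, adjusted p = 0.00283), and was at 3.83 without the control female library. Both partners rose. The alternative partner KIF3C, with 548 and 460.2 CPM in the sevoflurane female and male libraries and 406 and 307 CPM in the control female and male libraries, was not called (0.50 ± 0.27, adjusted p = 0.185), nor was KIFAP3 (0.38 ± 0.26, adjusted p = 0.271).

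Among kinesin-3 motors, which carry synaptic vesicle precursors and other membranes, 3 of 6 rose and 0 fell. Of all tested genes 21.3% rose and 19.4% fell. KIF14, of the same family, is counted with the mitotic kinesins below. KIF1B (ENSMMUG00000002171), which also carries mitochondria, stood at 477 and 522 CPM in the sevoflurane female and male libraries, against 48.4 and 48.3 CPM in the control female and male libraries. Its replicates lay close together, and the log2 fold change was 3.37 ± 0.26 (adjusted p = 0.00141). Its relative KIF1A, the neuronal carrier of synaptic vesicle precursors, was 662 and 419 CPM in the sevoflurane female and male libraries and 524 and 544 CPM in the control female and male libraries. For KIF1A the groups overlapped, with a log2 fold change of 0.02 ± 0.30 (adjusted p = 0.966). KIF13B stood at 19.8 and 23.97 CPM in the sevoflurane female and male libraries, against 1.37 and 0.444 CPM in the control female and male libraries (4.54 ± 0.61, adjusted p = 0.00352, and 5.61 without the control female library). KIF16B, a motor of early endosomes, had a log2 fold change of 2.71 ± 0.60 (adjusted p = 0.0148). KIF16B was at 3.79 with the control female library left out and at 2.11 with the control male left out, and its call was lost without the sevoflurane female (adjusted p = 0.0615) or male library (0.0590). KIF1C (−0.47) and KIF13A (0.37) were not called.

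KIF21A and KIF21B, kinesin-4 motors that regulate microtubule growth, parted in the same way. KIF21A stood at 262 and 277 CPM in the sevoflurane female and male libraries, against 18.9 and 9.42 CPM in the control female and male libraries. That is a log2 fold change of 4.25 ± 0.41 (adjusted p = 0.00187), or 4.85 without the control female library. KIF21B, at 600.1 and 332 CPM in the sevoflurane female and male libraries and 352 and 297 CPM in the control female and male libraries, overlapped between groups and was not called (0.52 ± 0.34, adjusted p = 0.259). KIF7, which acts in Hedgehog signalling at the cilium tip, was not called (−0.63), nor was KIF27 (1.35), which was called without the control male library (2.96, adjusted p = 0.0267). KIF2A, which removes tubulin from microtubule ends, stood at 257 and 348 CPM in the sevoflurane female and male libraries, against 138 and 120.4 CPM in the control female and male libraries. Its log2 fold change was 1.23 ± 0.27 (adjusted p = 0.0150), a call lost without the control male (0.0786) or the sevoflurane male library (0.0559).

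**Figure D3:**
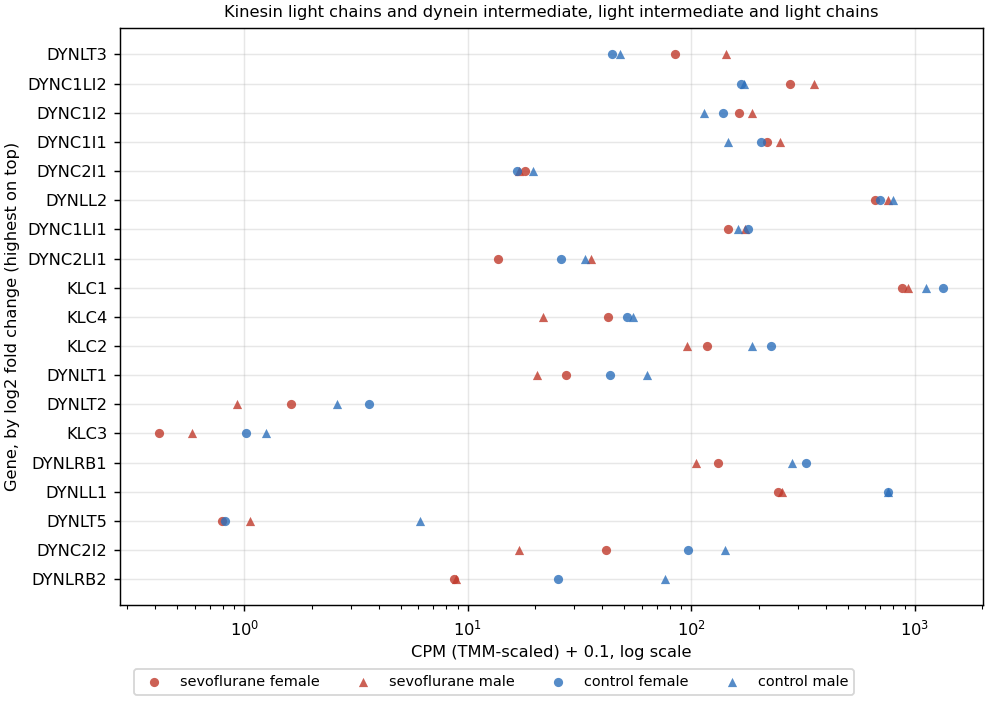
CPM plus 0.1 (x axis, log scale) of the 19 tested light, intermediate and light intermediate chains in each library, ordered by log2 fold change; red marks sevoflurane, blue control, circles females and triangles males. DYNLL1 and DYNLRB1 lie to the left in both sevoflurane libraries, DYNLL2 overlaps, and DYNLRB2 is highest in the control male library.

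The heavy and intermediate chains of cytoplasmic dynein were not called, and 1 of its light intermediate chains rose. The heavy chain DYNC1H1 was 918 and 741 CPM in the sevoflurane female and male libraries and 824 and 907 CPM in the control female and male libraries. These groups overlapped, with a log2 fold change of −0.06 ± 0.27 (adjusted p = 0.872). Of the intermediate chains, which bind dynactin, the mainly neuronal DYNC1I1 was 219 and 249 CPM in the sevoflurane female and male libraries and 206 and 146 CPM in the control female and male libraries (0.41 ± 0.28, adjusted p = 0.270). The widespread form DYNC1I2 was 163 and 186 CPM in the sevoflurane female and male libraries and 138 and 114 CPM in the control female and male libraries (0.47 ± 0.25, adjusted p = 0.178). For both genes the sevoflurane libraries lay above the controls without a call. Of the light intermediate chains, which bind cargo adaptors, DYNC1LI2 rose to 276 and 352 CPM in the sevoflurane female and male libraries, against 166 and 172 CPM in the control female and male libraries. Its log2 fold change was 0.89 ± 0.26 (adjusted p = 0.0341), and the call was lost without the control female (0.137), the control male (0.143) or the sevoflurane male library (0.108). DYNC1LI1 overlapped between groups, with 145 and 173 CPM in the sevoflurane female and male libraries and 179 and 162 CPM in the control female and male libraries (−0.10 ± 0.25, adjusted p = 0.779).

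Dynein light chains, small dimers at the base of the dynein tail, fell in 4 of 8 cases and rose in 1. Of all tested genes 19.4% fell and 21.3% rose. With either sevoflurane library left out 2 fell, and with the control female or the sevoflurane male left out 0 rose. DYNLL1 (ENSMMUG00000001194), which also binds many proteins outside dynein, stood at 245 and 255 CPM in the sevoflurane female and male libraries, against 761 and 759.7 CPM in the control female and male libraries. The replicates of each group nearly coincided, and the log2 fold change was −1.61 ± 0.25 (adjusted p = 0.00479). Its close relative DYNLL2 was 665 and 754 CPM in the sevoflurane female and male libraries and 699 and 801 CPM in the control female and male libraries, and was not called (−0.08 ± 0.26, adjusted p = 0.824). DYNLRB1, of the roadblock family, fell to 132 and 105 CPM in the sevoflurane female and male libraries, against 327 and 283 CPM in the control female and male libraries (−1.36 ± 0.26, adjusted p = 0.00953).

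The Tctex-type light chains moved in opposite directions. DYNLT1 stood at 27.4 and 20.3 CPM in the sevoflurane female and male libraries, against 43.3 and 63.0 CPM in the control female and male libraries (−1.15 ± 0.33, adjusted p = 0.0345). That call was gone with library totals (adjusted p = 0.0689) and without the control male library (0.156) or either sevoflurane library (0.0538 for the female, 0.128 for the male). DYNLT3 rose to 84.3 and 142 CPM in the sevoflurane female and male libraries, against 44.1 and 48.1 CPM in the control female and male libraries (1.30 ± 0.32, adjusted p = 0.0219). It was no longer called without the control female (0.0544) or the sevoflurane male library (0.0784). DYNLT2 (−1.35) was not called.

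Ribosomal protein genes and neuronal markers were recorded beside the motor classes. Of all tested genes 21.3% rose and 19.4% fell. Of 70 cytosolic ribosomal protein genes tested, 63 fell and 0 rose, with a median log2 fold change of −1.88, and 44 to 59 fell with 1 library left out, the fewest without the sevoflurane male. Their summed level was 9790.0 and 9984 CPM in the sevoflurane female and male libraries, against 28456 and 40624 CPM in the control female and male libraries. This list was chosen after the data were seen, it was not compared with the light chains by a test, and message lengths were not measured. The 6 neuronal markers summed to 5887 and 6456 CPM in the sevoflurane female and male libraries. In the control female and male libraries they summed to 5992 and 4985 CPM, so the groups overlapped. The part of neurons in the changes of motor genes was not tested. Within the neuronal list SYT1 rose (5.24 ± 0.77, 6.82 with the control female and 4.5 with the control male library left out) and RBFOX3 fell (−1.04 ± 0.32). RBFOX3 was no longer called with library totals (adjusted p = 0.0964) and without the control female (0.136) or the sevoflurane male library (0.137).

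Markers of glia were recorded beside the motor genes, in short lists. Of all tested genes 21.3% rose and 19.4% fell. Of 4 microglial markers 3 fell and 0 rose, and their summed level was 123 and 167 CPM in the sevoflurane female and male libraries, against 291 and 266 CPM in the control female and male libraries. Of 4 astrocyte markers 2 fell and 0 rose, with 2213 and 2834 CPM in the sevoflurane female and male libraries, against 3754 and 3301 CPM in the control female and male libraries. Of 3 oligodendrocyte markers 0 were called, with 2604 and 3436 CPM in the sevoflurane female and male libraries and 1219 and 5560.4 CPM in the control female and male libraries. Of the microglial markers 2 fell with either control or the sevoflurane male library left out, and of the astrocyte markers 1 fell with the control female or either sevoflurane library left out. The astrocyte marker SLC1A3, named after its values were seen, was not called (1.01 ± 0.33, adjusted p = 0.0527) but was called higher in 6 of 11 alternatives, among them library totals, DESeq2 and leaving out the control female library. AQP4, also named after its values were seen, was called higher with the sevoflurane female library left out (1.01, adjusted p = 0.0394). Of the oligodendrocyte markers 1 fell with the control female left out and 1 rose with the control male left out. The part of these cell types in the changes of motor genes was not tested.

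Read ratios of related members within a library do not depend on scaling. Of 16 pairs, chosen after the data were seen, 10 ratios were higher and 3 lower in both sevoflurane libraries than in both controls, and 3 overlapped. Single genes did not overlap between groups in 75.0% of all tested genes, which is near the 13 of 16 pairs. Only DYNLT3 and DYNLT1, among these pairs, were called in opposite directions, and in most pairs 1 or both members were not called. KIF13B over KIF13A was 0.689 and 0.864 in the sevoflurane female and male libraries, against 0.0769 and 0.0171 in the control female and male libraries. KIF21A over KIF21B was 0.436 and 0.832 in the sevoflurane female and male libraries, against 0.0535 and 0.0317 in the control female and male libraries. KIF1B over KIF1A was 0.721 and 1.25 in the sevoflurane female and male libraries, against 0.0924 and 0.0888 in the control female and male libraries. In mean log2 terms these 3 ratios were 21.3-fold, 14.6-fold and 10.5-fold higher after sevoflurane. The first was 45.1-fold higher with the control female and 10.03-fold with the control male library left out, and with 1 library left out the second ranged from 10.6-fold to 20.2-fold and the third from 7.96-fold to 13.7-fold. KIF5C over KIF5B was 3.34 and 2.81 in the sevoflurane female and male libraries, against 0.421 and 0.288 in the control female and male libraries, which is 8.81-fold higher. DYNLL1 over DYNLL2 was lower, at 0.368 and 0.338 in the sevoflurane female and male libraries, against 1.09 and 0.948 in the control female and male libraries. DYNC1I2 over DYNC1I1 overlapped between groups, at 0.744 and 0.748 in the sevoflurane female and male libraries and 0.671 and 0.783 in the control female and male libraries.

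**Figure D4:**
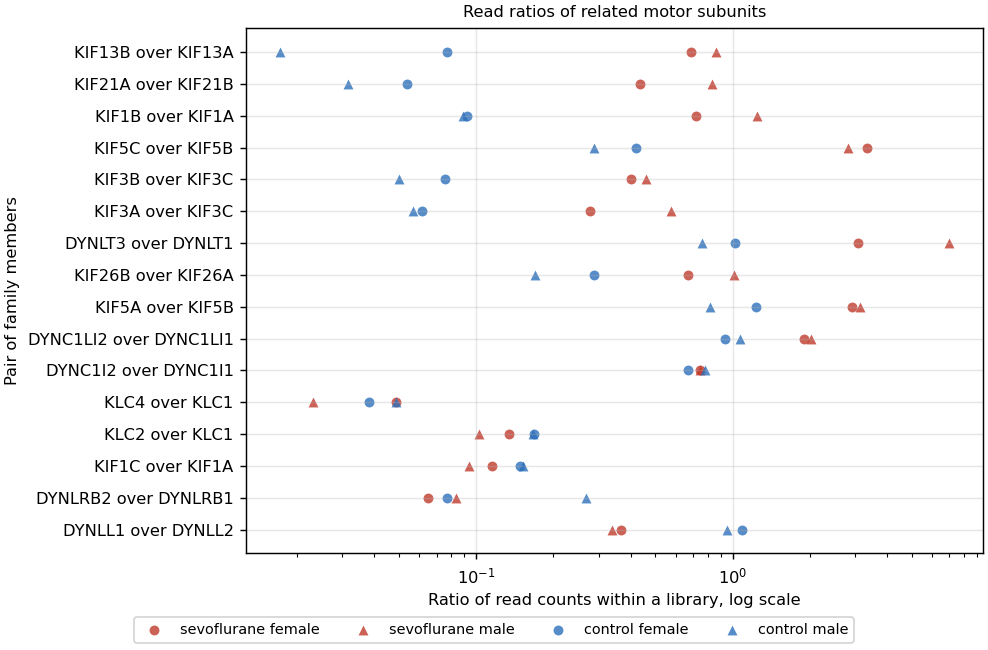
Ratio of read counts of related motor subunits within each library (x axis, log scale), ordered by the change between groups; red marks sevoflurane, blue control, circles females and triangles males. The ratio of KIF1B to KIF1A lies at 0.721 and 1.25 in sevoflurane libraries and at 0.0924 and 0.0888 in controls, and that of DYNLL1 to DYNLL2 shifts the other way.

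Subunits tied to cilia did not share a direction, and several were highest in the control male library. DYNC2H1, the heavy chain of the ciliary dynein, rose to 64.2 and 74.1 CPM in the sevoflurane female and male libraries, against 27.1 and 24.7 CPM in the control female and male libraries (1.42 ± 0.27, adjusted p = 0.00896). Its partner DYNC2I2, an intermediate chain, fell to 41.2 and 16.8 CPM in the sevoflurane female and male libraries, against 96.8 and 142 CPM in the control female and male libraries (−2.04 ± 0.47, adjusted p = 0.0167, and −2.83 without the sevoflurane female library). The other intermediate chain DYNC2I1 (−0.05 ± 0.32) and the light intermediate chain DYNC2LI1 (−0.28 ± 0.49) were not called.

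DYNLRB2, a roadblock light chain of ciliated cells, stood at 8.55 and 8.72 CPM in the sevoflurane female and male libraries, against 25.1 and 75.9 CPM in the control female and male libraries. Its log2 fold change of −2.54 ± 0.55 (adjusted p = 0.0137) was −1.56 without the control male library, and the call was lost without the sevoflurane female (0.0645) or male library (0.0751). KIF9, a kinesin of motile cilia, was 6.58 and 7.42 CPM in the sevoflurane female and male libraries and 18.3 and 36.2 CPM in the control female and male libraries (−1.96 ± 0.44, adjusted p = 0.0151). With the control male library left out KIF9 was at −1.40 and no longer called (adjusted p = 0.0655), and it was not called with either sevoflurane library left out (0.0673 and 0.0686). KIF19, which trims ciliary microtubules, was not called (−1.90 ± 0.67, adjusted p = 0.0625), but was called without the control female library (−2.44, adjusted p = 0.00828), by DESeq2 (0.0220), without a filter (0.00487) and with sex as a second term (0.0231), and was at −1.05 without the control male library. DYNLT5 was not called (−2.01 ± 1.04, adjusted p = 0.166), but was called without the control female library (−2.84, adjusted p = 0.0138), and was at 0.19 without the control male library. KIF6 overlapped between groups (0.24 ± 0.80).

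The control male library was the highest for 7 of 9 motor subunits chosen as cilium-associated, and for 8 of 11 ependymal markers. How many of all tested genes were highest in that library was not counted, so these counts cannot be read as particular to cilia. The exceptions among the subunits were DYNC2H1, lowest there, and DYNC2LI1, highest in the sevoflurane male. Some margins were small, as for KIF6, at 4.17 CPM against 4.05 CPM in the sevoflurane male. KIF3A, KIF3B and KIF7, which also act in cilia, were not among the 9. In the control male library KIF3A and KIF3B were lowest, at 17.4 and 15.3 CPM, and KIF7 was highest, at 29.7 CPM. DYNLT4, below the read minimum, had 43 reads in the control male library and 0 in each of the other libraries. The 11 listed markers of ciliated ependyma that had an ID summed to 91.5 and 81.9 CPM in the sevoflurane female and male libraries, against 70.4 and 273 CPM in the control female and male libraries. None of the 11 was at 0 in any library, and 1 (DNAH5, named after its values were seen) rose and 0 fell. Without a filter 1 rose and 3 fell, and by DESeq2 or with sex as a second term 1 rose and 2 fell. Of all tested genes 21.3% rose and 19.4% fell. The median log2 fold change of the 11 ependymal markers was −0.46. With the control male library left out that median was 0.74, with 1 rising and 0 falling, and with the control female left out 4 fell. Of the 5 choroid plexus markers tested, 0 rose and 1 fell, KCNJ13, which had 0 reads in both sevoflurane libraries and was no longer called with either of them left out (adjusted p = 0.0867 and 0.1003). The median of the 5 was −2.32, and 2.36 with the control male library left out, where 1 rose and 1 fell. With the control female left out 3 fell, with a filter of 5 CPM 4 of 5 fell, without a filter 1 of 7 rose and 5 fell, by DESeq2 2 fell, and with sex as a second term 1 rose and 1 fell. The part of ependymal or choroid plexus tissue in the values of these subunits was not tested, beyond the values without the control male library given here.

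**Figure D5:**
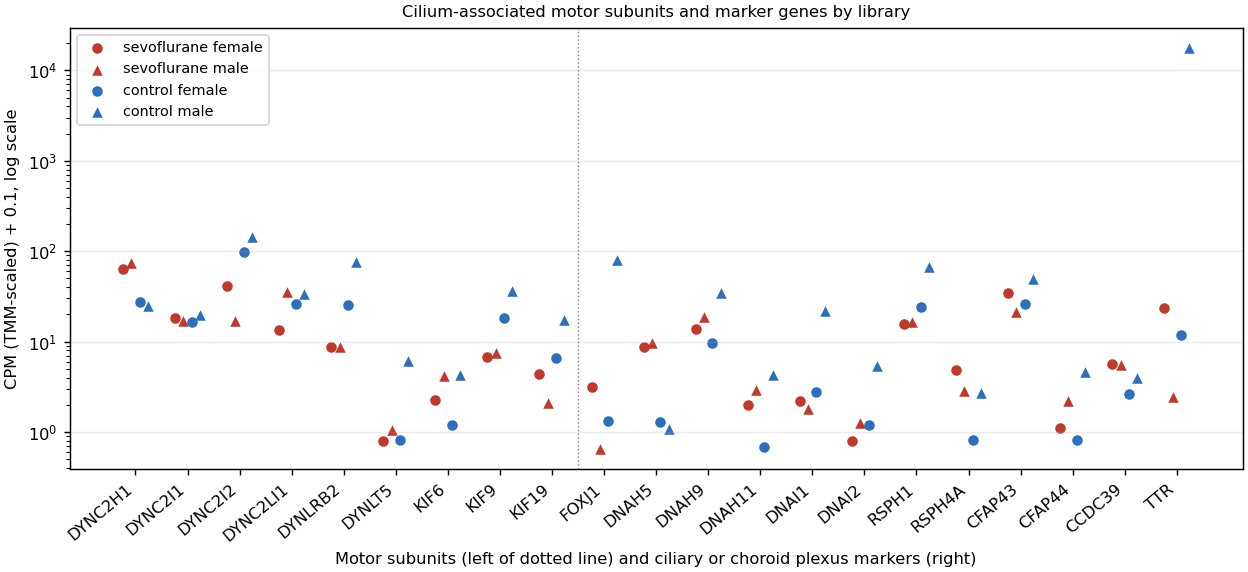
CPM plus 0.1 (y axis, log scale) of cilium-associated motor subunits (left of the dotted line) and of marker genes of ciliated cells and choroid plexus (right) in each library; red marks sevoflurane, blue control, circles females and triangles males. The 9 subunits chosen as cilium-associated, 11 ependymal markers and TTR are shown, without KIF3A, KIF3B and KIF7. The control male library is the highest for 7 of the 9 subunits (75.9 CPM for DYNLRB2) and lowest for DYNC2H1 (24.7 CPM). The share of all tested genes highest in that library was not counted.

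The mitotic kinesins were scarce, and 3 of the 10 tested rose while 1 fell (21.3% and 19.4% of all tested genes). The 3 that rose, KIF11, KIF14 and KIF18A, reached 10 reads in sevoflurane libraries only, which the read minimum favours. Of the 6 mitotic kinesins not so selected 0 rose and 1 fell, with a median log2 fold change of 0.54. KIF11, which slides spindle microtubules apart, was 2.28 and 3.23 CPM in the sevoflurane female and male libraries and 0.457 and 0.444 CPM in the control female and male libraries (2.59 ± 0.69, adjusted p = 0.0273). KIF14, which acts at the end of cell division, had 18 and 31 reads in the sevoflurane female and male libraries and 0 in both controls. Against a floor of 3 reads per library, a mean of 0.231 CPM, KIF14 was 7.07-fold higher, a value without allowance for counting error. KIF14 was 6.13-fold higher than the floor with the control female library left out. With the sevoflurane male library left out it was 4.93-fold higher, and then no longer called. KIF18A, which dampens chromosome movement, had 17 and 31 reads in the sevoflurane female and male libraries against 3 and 2 in the control female and male libraries (3.04 ± 0.84, adjusted p = 0.0305).

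These calls rested on few reads. Those of KIF11 and KIF18A were lost without any 1 of the 4 libraries, with adjusted p from 0.0608 to 0.180, and that of KIF18A also by DESeq2 (0.0641). KIF22, a chromosome-arm motor, was the member that fell, to 27.0 and 19.1 CPM in the sevoflurane female and male libraries, against 42.1 and 49.8 CPM in the control female and male libraries (−0.99 ± 0.32, adjusted p = 0.0467). Its call was gone with library totals (0.102) and without the control female (0.0686), the control male (0.154) or the sevoflurane male library (0.153). Of the 10 mitotic kinesins, 2 rose with the control female library left out, 1 with the control male or the sevoflurane female left out, and 0 with the sevoflurane male left out. Summed over the mitotic kinesins, the level was 45.1 and 46.4 CPM in the sevoflurane female and male libraries and 52.5 and 60.0 CPM in the control female and male libraries. KIF22 alone held 27.0 and 19.1 CPM of the sevoflurane sums and 42.1 and 49.8 CPM of the control sums. The sum thus largely followed KIF22 and not the set. The median log2 fold change was 1.12 for the 10 tested and 0.54 for the 6 not selected by the read minimum. Of 11 markers of dividing cells tested, 1 rose and 0 fell (21.3% and 19.4% of all tested genes), with a median log2 fold change of 0.63. Their summed levels were 56.8 and 63.4 CPM in the sevoflurane female and male libraries, against 31.9 and 44.1 CPM in the control female and male libraries. Of these markers 0 rose with the control female or either sevoflurane library left out. The remaining 6 mitotic kinesins and KIF25, KIF26A and KIF26B were not called, with log2 fold changes from −0.69 to 1.89. KIF20B and KIF26B were called without the control female library (3.06 and 2.64) and without a filter, and KIF26B also with sex as a second term. KIF4A has a retrogene copy, KIF4B, with which it may share reads.

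The partners of dynein and kinesin were mixed in direction. Of 12 dynactin subunits, which link dynein to cargo, 1 rose and 5 fell, with a median log2 fold change of −0.45, where 21.3% of all tested genes rose and 19.4% fell. DCTN3, a shoulder subunit, fell to 82.9 and 73.6 CPM in the sevoflurane female and male libraries, against 299 and 307 CPM in the control female and male libraries (−1.95 ± 0.25, adjusted p = 0.00304). ACTR1B, of the actin-like filament, was at −1.27 ± 0.27, a call lost without the sevoflurane male library (adjusted p = 0.0550). DCTN4, named after its values were seen, was the member that rose (0.97 ± 0.24), a call that ended without the control female (adjusted p = 0.0796), the control male (0.135) or the sevoflurane male library (0.0682). With either control library left out 0 rose and 3 fell, with the sevoflurane male library left out 0 rose and 2 fell, and with library totals 1 rose and 3 fell.

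Of 14 dynein regulators and adaptors, 6 rose and 2 fell, with a median of 0.64, against the same shares of all tested genes. BICD1, an adaptor that activates dynein, stood at 36.0 and 15.2 CPM in the sevoflurane female and male libraries, against 2.28 and 1.60 CPM in the control female and male libraries (3.71 ± 0.57, and 2.96 without the sevoflurane female library). NIN, a centrosomal adaptor, was at 2.99 ± 0.34 (adjusted p = 0.00251). The members that fell, HOOK2 and BICDL2, were named after their values were seen and had adjusted p of 0.0457 and 0.0497. HOOK2 lost its call with library totals and without any 1 library, and BICDL2 lost it without every library but the control female and in 5 of 6 other alternatives that tested it. Without the control male or the sevoflurane male library 4 of this list rose and 0 fell, without the sevoflurane female 3 rose and 0 fell, and without the control female 1 fell. Among 23 kinesin adaptors and cargo linkers, 7 rose and 4 fell, with a median of 0.38, where 21.3% of all tested genes rose and 19.4% fell. With library totals, a filter of 5 CPM, DESeq2 or sex as a second term, 9 of the 23 rose and 4 fell. APBA1, an adaptor known to link KIF17 to its cargo in mice, stood at 71.0 and 85.9 CPM in the sevoflurane female and male libraries, against 3.20 and 2.04 CPM in the control female and male libraries (4.89 ± 0.38, adjusted p = 0.00141). GRIP1, which links KIF5 to AMPA receptors, was at 3.95 ± 0.48 (adjusted p = 0.00276).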

How the data were processed

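For each of 4 libraries the authors deposited raw counts of reads by gene, which are whole numbers and not normalized. Reads were aligned with HISAT2, per the submitters' processing notes; its version, the counting program, the strand setting, the genome build and the annotation are not stated, so genes with near-identical copies or overlaps are uncertain. Gene symbols were matched by ID, for 24173 of 35395 IDs. Every sample column was used. No genome or sequence table was used, so no positions, lengths or sequences are given.

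Genes passed edgeR's filterByExpr (minimum count 10, by group), counts were TMM-scaled (factors 1.10, 1.07, 0.942 and 0.904 in the sevoflurane female, sevoflurane male, control female and control male libraries), and sevoflurane was compared with control by edgeR 4.0.16 in R 4.3.3 (glmQLFit and glmQLFTest, condition as the only term, 2 residual degrees of freedom) with Benjamini-Hochberg adjustment over all 15417 tested genes. SE were derived from the F statistic. All 54 members that met the read minimum also passed this filter. The fit was also run on simulated counts, with the same dispersion for all genes and few changed genes. That run does not measure the error rate of the calls made here. With library totals the median log2 fold change of all genes was 0.24, with 3907 genes higher and 2269 lower, against 0.0040, 3282 and 2996 with TMM. Log2 CPM used a prior count of 2. Full values are given for the 6 called heavy chains and 6 called other subunits of largest change and for a fixed set of 23 motor genes, and the 2 called genes of largest change in each related list are named. Alternatives were other scalings, filters, DESeq2 1.42.0, sex as a second term and leaving out each library (the lone library of a condition assumed to vary like the other condition; the same genes tested). Members and lists were chosen with earlier results of these data known. AQP1, CCDC40, MAG, UBE2C and KIF17 were not analysed here.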

Additional observations from a re-analysis of the deposited data

Results flagged for a closer look

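In 7 of 54 tested motor genes (12.96%, against 14.7% of all tested genes) the difference between sevoflurane and control had opposite signs in females and in males, with 1 library per sex and condition. Opposite signs leave little room for a call between conditions, and the difference between the sexes was not tested. On the log2 scale, the male minus the female difference was 1.02 for DYNC2LI1, 0.40 for DYNC1LI1, −0.33 for DYNC2I1, −0.45 for DYNC1H1, −0.71 for KIF1A, −0.72 for KIF26A and −0.92 for KIF6. DYNC2LI1, a light intermediate chain of the ciliary dynein, was lower in the sevoflurane female (13.5 CPM) than in the control female library (25.96 CPM), and similar in the sevoflurane male (35.4 CPM) and control male libraries (33.5 CPM). KIF1A was higher in the sevoflurane female (662 CPM) than in the control female library (524 CPM), and lower in the sevoflurane male (419 CPM) than in the control male library (544 CPM).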

How the results depend on the processing

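With DESeq2's size factors or a filter of 10 reads in 2 libraries no call of a motor gene changed, and no called motor gene changed sign under any alternative. With library totals 5 members fell in all (8 with TMM), 1 of them a heavy chain and 3 of them light chains, and the medians were 0.67 for all members, 1.23 for heavy chains and −0.49 for other subunits. With a filter of 5 CPM, which left 39 members, the median was 0.055 for all members and −0.33 for other subunits. The log2 difference between groups in the heavy over other ratio, 1.43 on summed CPM, was 1.30 to 1.56 without 1 library. On mean log2 CPM it was 1.90, and 1.69 to 2.10 without 1 library. Both include the 5 members that reached 10 reads in 1 condition only. Without 1 library in turn, 8 to 13 members rose and 3 to 8 fell. Among these, 8 to 13 heavy chains rose and 0 to 2 fell, 0 to 2 other subunits rose and 3 to 6 fell, and 0 to 1 light chains rose and 2 to 5 fell. The medians were then 0.24 to 0.44 for all members, 0.99 to 1.35 for heavy chains, −1.09 to −0.58 for other subunits and −1.34 to −0.97 for light chains. Fewer samples enter these fits; other causes were not tested. The labels give no replicate numbers, but each condition has 1 female and 1 male; with sex as a second term, which is the paired fit by sex, 17 members rose and 9 fell. With few reads, as for the mitotic kinesins, counting error limits what can be called.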

Other observations

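Kinesins whose symbols fall outside the KIF number series were examined as well. STARD9, a very large kinesin of the centrosome, stood at 36.5 and 19.6 CPM in the sevoflurane female and male libraries, against 5.22 and 4.62 CPM in the control female and male libraries (log2 fold change 2.51 ± 0.44, edgeR adjusted p = 0.00697). CENPE, the kinetochore kinesin, was at 1.60 ± 0.45 (adjusted p = 0.0308), a call lost without the control female or without either sevoflurane library (0.0647 to 0.154). The minus-end directed KIFC2 and KIFC3 fell. KIFC2, a kinesin of neurons in mice, was 249 and 104 CPM in the sevoflurane female and male libraries and 524 and 388 CPM in the control female and male libraries (−1.37 ± 0.44, adjusted p = 0.0487). KIFC2 was at −2.13 without the sevoflurane female library, and was no longer called with library totals (adjusted p = 0.0912) or without the control female (0.0799) or the sevoflurane male library (0.115). KIFC3 was at −1.21 ± 0.31 (adjusted p = 0.0231), a call lost without the control male (0.0514) or the sevoflurane male library (0.0759). KIFC1 was the 1 of the 5 that was not called. Of all tested genes 21.3% rose and 19.4% fell. These genes were named with their values known.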
